A study of Drosophila melanogaster with 18 samples.

Results

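The Cpr genes encode cuticular proteins that carry the Rebers and Riddiford (R&R) consensus, a stretch that binds chitin. A member was taken as any row of the count table whose FlyBase symbol begins with Cpr followed by a digit, which gave 70 genes of 17562. RNA-seq of total RNA depleted of rRNA was made from whole third-instar larvae of Drosophila melanogaster, with 3 libraries in each of 6 groups. The study's read statistics instead call the method mRNA-seq, and its methods mention no depletion of rRNA. The WT was the isogenic w1118 strain BDSC 5905, which the labels give as the strain of all 18 libraries. The other groups were 21D.del, 82Eb.del, 95Ca.del, 95Cb.del and 95Cc.del, in each of which 1 of the 5 genes for U1 snRNA had been removed by CRISPR/Cas9. The lines were then crossed repeatedly to that WT strain, and how alike the backgrounds became is not stated. According to the methods each deletion took out the promoter, transcript and terminator of its gene. The study writes the strains as Δ/Δ, that is, with both copies of the gene deleted. The sources read here do not state how many lines each strain rests on, how many larvae were pooled, whether libraries came from separate cultures, or the exact age of the larvae. The p-values thus measure the spread between these libraries.

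The insect cuticle is a layer of chitin fibres and proteins laid down by the epidermis, the tracheae and the fore- and hindgut. The R&R family is its largest protein family, and different members are transcribed at different times around each moult and at pupariation, under pulses of the steroid hormone ecdysone and the transcription factors that it induces. In a larva of the third instar, the epidermis still thickens the larval cuticle before wandering and then turns to the puparium and the pupal cuticle. In whole larvae, fewer cells of a type and less RNA per cell cannot be told apart. U1 snRNA pairs with the 5′ splice site and also protects nascent transcripts from early 3′-end formation.

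Total counts ran from 11919121 to 21776613 per library, so that a count of 0 allowed at most 0.252 CPM (a gene's counts scaled by the total counts of its library, as counts per 1e+06) in the shallowest one. The larval fat body genes Lsp1alpha and Fbp1 and the glue gene Sgs3 of the salivary gland were read in all 18 libraries, with lowest levels of 10504, 11906 and 1767 CPM. Reads of the U1 genes themselves were few (0 to 9 per gene in the WT libraries). The deleted gene had 0 counts in every library of its own strain except the library labelled 95Ca replicate 2, where the 95Ca gene had 5. The U1 copies are near identical, so that reads may be assigned to the wrong copy. On the first principal component of the 500 most variable genes (52.1% of the variance), replicate 2 of WT, 21D.del and 82Eb.del and replicate 1 of 95Ca.del, 95Cb.del and 95Cc.del stood apart from the other libraries of their groups. Results that rest on these libraries are given with and without them.

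The genome holds the family in tandem runs. Of the 70 genes 35 lie on 3L, 21 on 2R, 5 on 2L, 5 on 3R and 4 on X (dm6). Runs with gaps of at most 50 kb put 45 genes into 10 clusters of 3 or more, named here by cytological position. The 2 largest on 2R are 47E with 7 genes (2R, 11251751 to 11278445) and 49A with 8 genes (2R, 12376626 to 12415170), and the largest on 3L is 65A with 7 genes (3L, 6131242 to 6161589), which holds the Lcp65A larval cuticle protein genes in the same stretch. The remaining clusters, all on 3L, are 62B, 65E, 67F, 72E and 78C with 3 genes each and 64A and 76B with 4 each. A gap of 20 kb gave the same 10 clusters. The genes are short, with a median of 862 bases of exon (389 to 4525), and 75.7% have 1 or 2 introns against 35.5% of the 17479 genes with an annotation. Only 6 have no intron, and Cpr47Ef has 16. Cpr67Fa1 and Cpr67Fa2, and Cpr65Ax1 and Cpr65Ax2, are close copies between which reads could be split or lost. Another counted gene overlaps 13 members, Cpr64Aa to Cpr64Ad among them.

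In WT larvae a few members held most of the reads. Mean levels reached 100 CPM in 4 genes, 10 CPM in 21 and 1 CPM in 37, while 33 stayed below 1 CPM and Cpr57A had no read in any library. Per kilobase of exon the order was led by Cpr78E with a WT mean of 1192 CPM per kb, followed by Cpr49Ac with 833, Cpr67B with 207, Cpr47Ec with 173 and Cpr49Af with 91.4. Cpr12A (81.7), Cpr60D (61.0), Cpr65Av (37.5), Cpr47Eb (35.6) and Cpr65Aw (33.9) completed the first 10. Cpr78E measured 607, 246 and 802 CPM in the WT replicates 1 to 3 and Cpr49Ac measured 1581, 2113 and 1598. Their order per kb therefore held in replicates 1 and 3 but not in replicate 2 of the WT, where Cpr78E was lowest and Cpr49Ac highest. The leading member of each other cluster was Cpr62Bc (13 CPM per kb), Cpr64Aa (6.33), Cpr65Ec (3.86), Cpr67Fa2 (26), Cpr72Ec (0.360), Cpr76Bc (1.57) and Cpr78Cc (18.9).

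The summed level of the family was set by its most abundant members, chiefly Cpr49Ac. Over the 70 genes it was 3213 ± 136 CPM in WT, 4402 ± 1124 in 21D.del, 4381 ± 361 in 82Eb.del, 3658 ± 958 in 95Ca.del, 4891 ± 1024 in 95Cb.del and 2633 ± 117 in 95Cc.del (mean ± SD, n = 3). The 95Cc.del libraries (2509 to 2742) lay below, and those of 21D.del, 82Eb.del and 95Cb.del above, all WT libraries (3063 to 3328). With TMM scaling, the libraries of 95Cc.del (2518 to 2779) and 82Eb.del (3432 to 4987) overlapped with those of WT (2726 to 3442). Cpr49Ac supplied 49.2% to 63.5% of the sum in WT, 77.8% to 81.4% in 95Cb.del and 36.6% to 38.0% in 95Cc.del. Without Cpr49Ac and Cpr78E, 95Cc.del held the most. The other 68 genes then summed to 848 to 968 CPM in WT, 502 to 563 in 82Eb.del, 407 to 473 in 95Cb.del and 1402 to 1500 in 95Cc.del. No test was made of these sums.

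**Figure D1:**
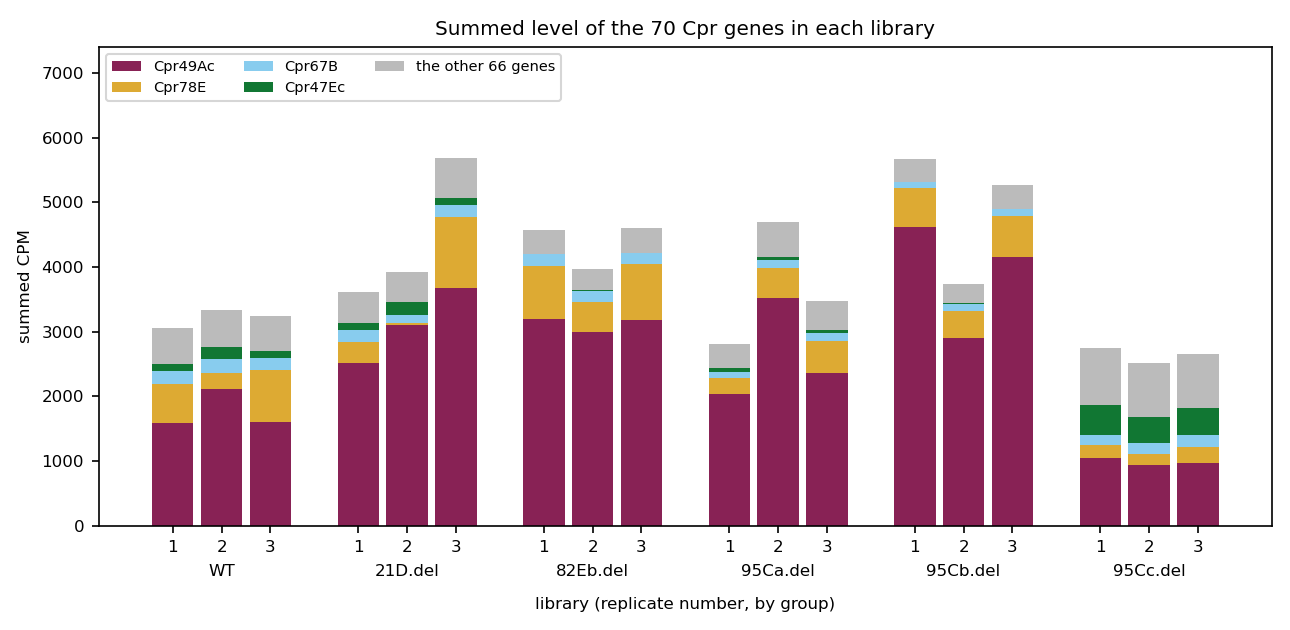
Summed CPM of the 70 Cpr genes in each of the 18 libraries, with the 4 genes of highest mean WT level drawn apart and the other 66 genes in grey; bars are single libraries, ordered by replicate number within each group. The share of Cpr49Ac in a bar ran from 36.6% in a 95Cc.del library to 81.4% in a 95Cb.del library, and the Cpr47Ec part (406 to 453 CPM) was taller in 95Cc.del than in any other group.

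Of the 70 members, 45 had enough reads to be tested in at least 1 of the 5 strains against the WT (41 in all 5), and 25 were tested in none. The untested genes did not pass 0.521 CPM as the mean of any group, and they include all 3 of the 72E cluster, Cpr72Ec among them, which encodes a protein of the corneal lens in the adult eye. A difference in these genes was not detectable at this depth. A gene is said below to have risen or fallen where edgeR's quasi-likelihood test over all genes gave a Benjamini-Hochberg adjusted p under 0.05 and an absolute log2 fold change above 1. By that rule 17 of the 45 changed in at least 1 strain: 15 fell in 1 or more, 9 rose in 1, and 7 did both in different strains. The share of all genes is given below for each strain, but was not counted over the strains together. Of these 17 genes 15 have 1 or 2 introns, as have 40 of the 45 tested. The 5 comparisons share the WT libraries.

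**Figure D2:**
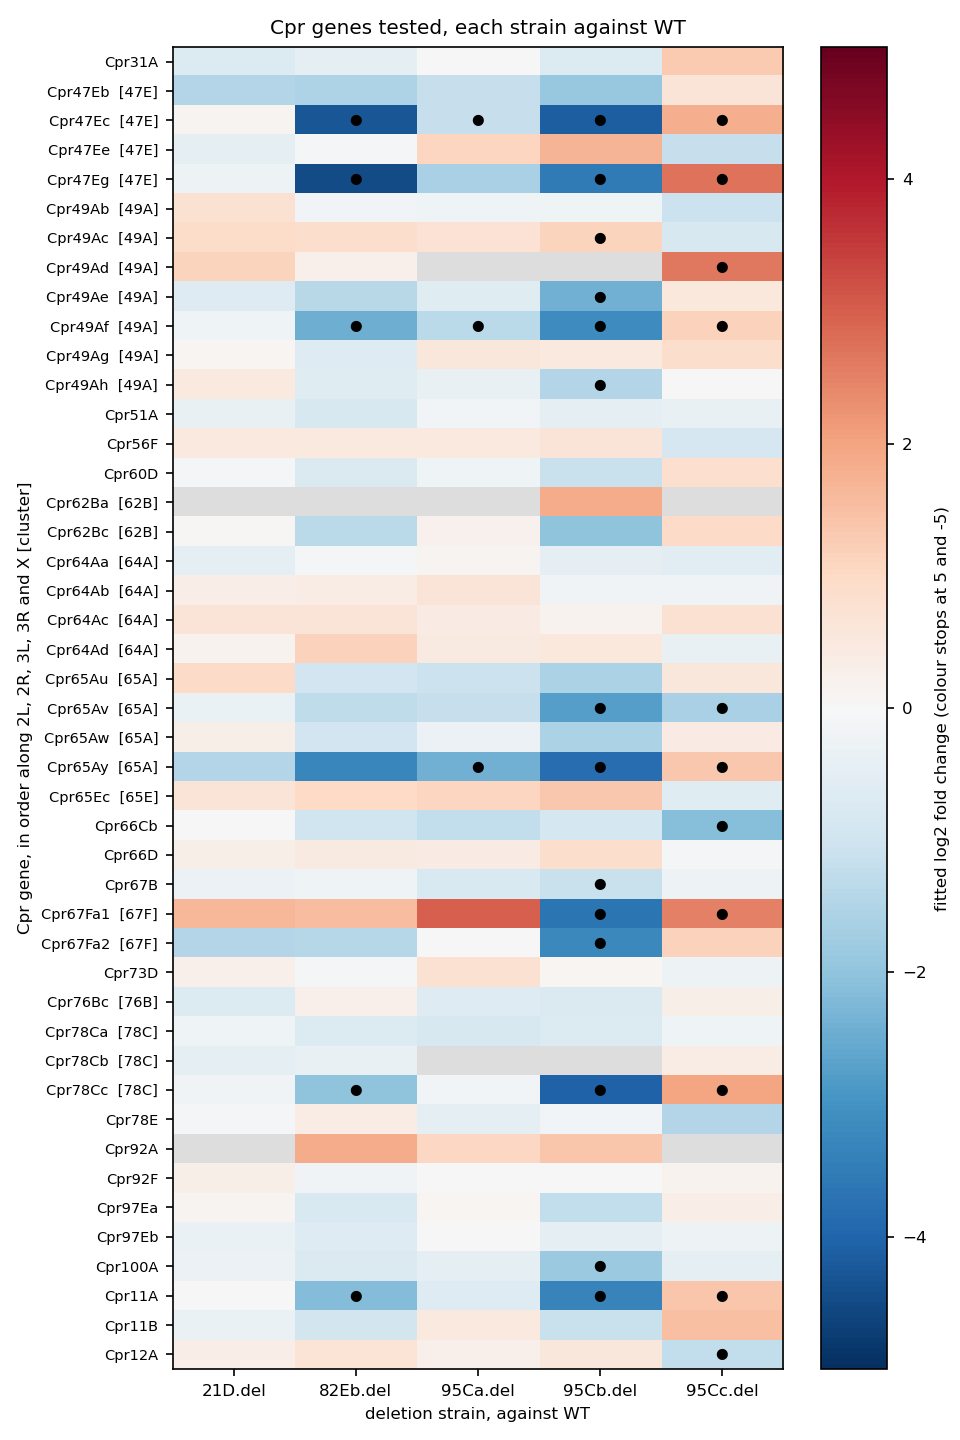
Fitted log2 fold change against WT of the 45 Cpr genes tested in any strain, with genes in order along the arms (cluster in brackets), strains in columns, grey where a gene was not tested and a dot where it rose or fell. The column of 21D.del holds no dot, and the dots of 82Eb.del and 95Cb.del are on blue cells (falls) except that of Cpr49Ac in 95Cb.del (1.10).

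In 21D.del no member fell or rose. None of the 43 tested genes was called by edgeR, with 0.892% of all genes falling and 0.121% rising, and DESeq2 called none as well. An unadjusted p under 0.05 was reached by 3 members. The median log2 fold change of the members was 0.01, and 21 lay below 0 and 22 above. Cpr47Ec, which moved in every other strain, measured 107, 194 and 106 CPM in 21D.del against 104, 186 and 96.2 in WT, where replicate 2 was the highest library in both groups. Cpr49Ac, at 2511, 3106 and 3681 CPM, lay above every WT library but did not pass (log2 0.91, SE 0.32, adjusted p = 0.45). With the replicate number as a block, 3 members fell in this strain (Cpr47Eb, Cpr65Ay and Cpr67Fa2), and with replicate 2 left out of both groups 2 did (Cpr47Eb and Cpr65Ay).

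In 82Eb.del 5 of 44 tested members fell (11.4%, against 3.8% of all genes) and none rose (0.733% of all genes). The falls were led by 2 genes of the 47E cluster that are not adjacent. Cpr47Ec went from 104, 186 and 96.2 CPM in WT to 5.41, 9.19 and 4.91, with no overlap between the groups (log2 -4.26, SE 0.26, adjusted p = 0.000489). Cpr47Eg, with 4.58 ± 1.19 CPM in WT (SD, n = 3), kept 0.187 ± 0.0745, which is 10 reads over the 3 libraries against 221 (log2 -4.47, SE 0.35, adjusted p = 0.00105). These were the largest falls of the family in this strain. Cpr49Af in the 49A cluster measured 15.1, 23.3 and 13.6 CPM against 94.8, 122 and 72.9 (log2 -2.45, SE 0.19). The X-linked Cpr11A, which lies in no cluster, fell by 2.15 on the log2 scale, and Cpr78Cc fell by 2.0. The first 4 of these calls held whichever single library was left out, while Cpr78Cc (adjusted p = 0.0434) was lost without WT replicate 1 (0.155), WT replicate 3 (0.16) or any of the replicates of 82Eb.del (0.0653 to 0.154).

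The number called in 82Eb.del rested on how replicate 2 was handled. With the replicate number as a block, 11 members fell, which included the 5 above and added Cpr47Eb, Cpr49Ae, Cpr62Bc, Cpr65Av, Cpr65Ay and Cpr67Fa2, and 4 rose (Cpr64Ad, Cpr65Ec, Cpr67Fa1 and Cpr92A). Without replicate 2 of both groups, 13 fell and 4 rose, Cpr49Ac among the latter. Several genes in fact lay apart from the WT in all libraries without being called by the unblocked fit. Cpr65Ay measured 0.492, 0.631 and 0 CPM against 2.39, 6.04 and 2.86 in WT (adjusted p = 0.0675), and Cpr65Av measured 11.0, 7.86 and 10.1 against 25.3, 20.9 and 26 (adjusted p = 0.0632). The median log2 over the 44 tested members was -0.63, with 0.01 over all genes.

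In 95Ca.del 3 of 42 tested members fell (7.14%, against 2.51% of all genes) and none rose (0.241% of all genes). Cpr47Ec and Cpr49Af fell here too, by less than in 82Eb.del. Cpr47Ec measured 60.4, 44.1 and 55.4 CPM, all below the WT libraries (log2 -1.17, SE 0.20, adjusted p = 0.0283), and Cpr49Af measured 45.6, 30.0 and 33.7 (log2 -1.33, SE 0.18, adjusted p = 0.0106). Cpr65Ay, at 0.944, 0.479 and 0.479 CPM, fell by 2.42. None of the 3 calls was stable to the loss of a library. Without WT replicate 1, or without 95Ca.del replicate 3 or the library labelled 95Ca replicate 2, none remained. Without WT replicate 2, WT replicate 3 or 95Ca.del replicate 1, Cpr49Af alone did. DESeq2 called 6 falls and 1 rise, as did replicates 2 and 3 of the strain against WT replicates 1 and 3. The rise was that of Cpr67Fa1, at 7.61, 27.4 and 13.3 CPM against 2.80, 0.671 and 2.80 in WT, which did not pass edgeR's test (log2 2.99, SE 0.75, adjusted p = 0.116).

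Most falls were found in 95Cb.del. Of 43 tested, 13 fell (30.2%, against 5.96% of all genes) and 1 rose (2.33%, against 1.43%). The median log2 was -0.71, with -0.02 over all genes, and 31 members lay below 0. Cpr47Ec again led, with 10, 5.62 and 7 CPM and no overlap with WT (log2 -4.12, SE 0.27, adjusted p = 0.000334). Cpr78Cc kept 0.694, 0.703 and 0.510 CPM of the WT's 10.5, 7.05 and 12 (log2 -4.03, SE 0.37), the lowest level of this gene in any group. Cpr11A measured 3.77, 2.61 and 3.94 CPM against 26.8, 46.8 and 29.6 in WT (log2 -3.35, SE 0.25), and Cpr49Af 12, 12.1 and 9.99 (log2 -3.13, SE 0.18). In each of these genes the 3 strain libraries lay several-fold below the lowest WT library. Cpr47Eg fell by 3.54, Cpr65Av by 2.74 and Cpr100A by 1.84. Cpr100A measured 7.48, 9.89 and 10.9 CPM against 30.3, 28.5 and 37.9 (SE 0.28, adjusted p = 0.00989), and it fell in no other strain, with log2 values of -0.28 to -0.72 there. These 7 falls (Cpr47Ec, Cpr78Cc, Cpr11A, Cpr49Af, Cpr47Eg, Cpr65Av and Cpr100A) held whichever library was left out.

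The other 6 falls in 95Cb.del were lost with at least 1 library. Cpr65Ay (log2 -3.79) and Cpr67Fa2 (log2 -3.21) were lost without 95Cb.del replicate 2, with adjusted p of 0.0696 and 0.0556, and Cpr49Ah (log2 -1.47) without replicate 3 (0.0818). Cpr67B, among the most abundant members, measured 93.5, 105 and 105 CPM against 210, 218 and 198 in WT, with no overlap (log2 -1.10, SE 0.17, adjusted p = 0.0103). Its fold change lay close to the limit of 1, and it was lost without WT replicate 1, WT replicate 3 or replicates 1 or 3 of the strain, at adjusted p of 0.0365 to 0.0569. Cpr49Ae had 4, 2 and 5 reads in the 95Cb.del libraries and Cpr67Fa1 had 8, 2 and 0. Both calls held without WT replicate 2 and were lost when any other single library was left out. The rise was that of Cpr49Ac, the most abundant member, at 4622, 2903 and 4156 CPM against 1581, 2113 and 1598 (log2 1.10, SE 0.25, adjusted p = 0.0397). It was lost with scaling to library totals and without WT replicate 1 (0.12), WT replicate 3 (0.133), 95Cb.del replicate 1 (0.112) or 95Cb.del replicate 3 (0.172), and Cpr47Ee joined it without WT replicate 2. Replicates 2 and 3 of the strain against WT replicates 1 and 3, a comparison added after the data were seen, gave 20 falls, the 13 among them, and 3 rises.

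**Figure D3:**
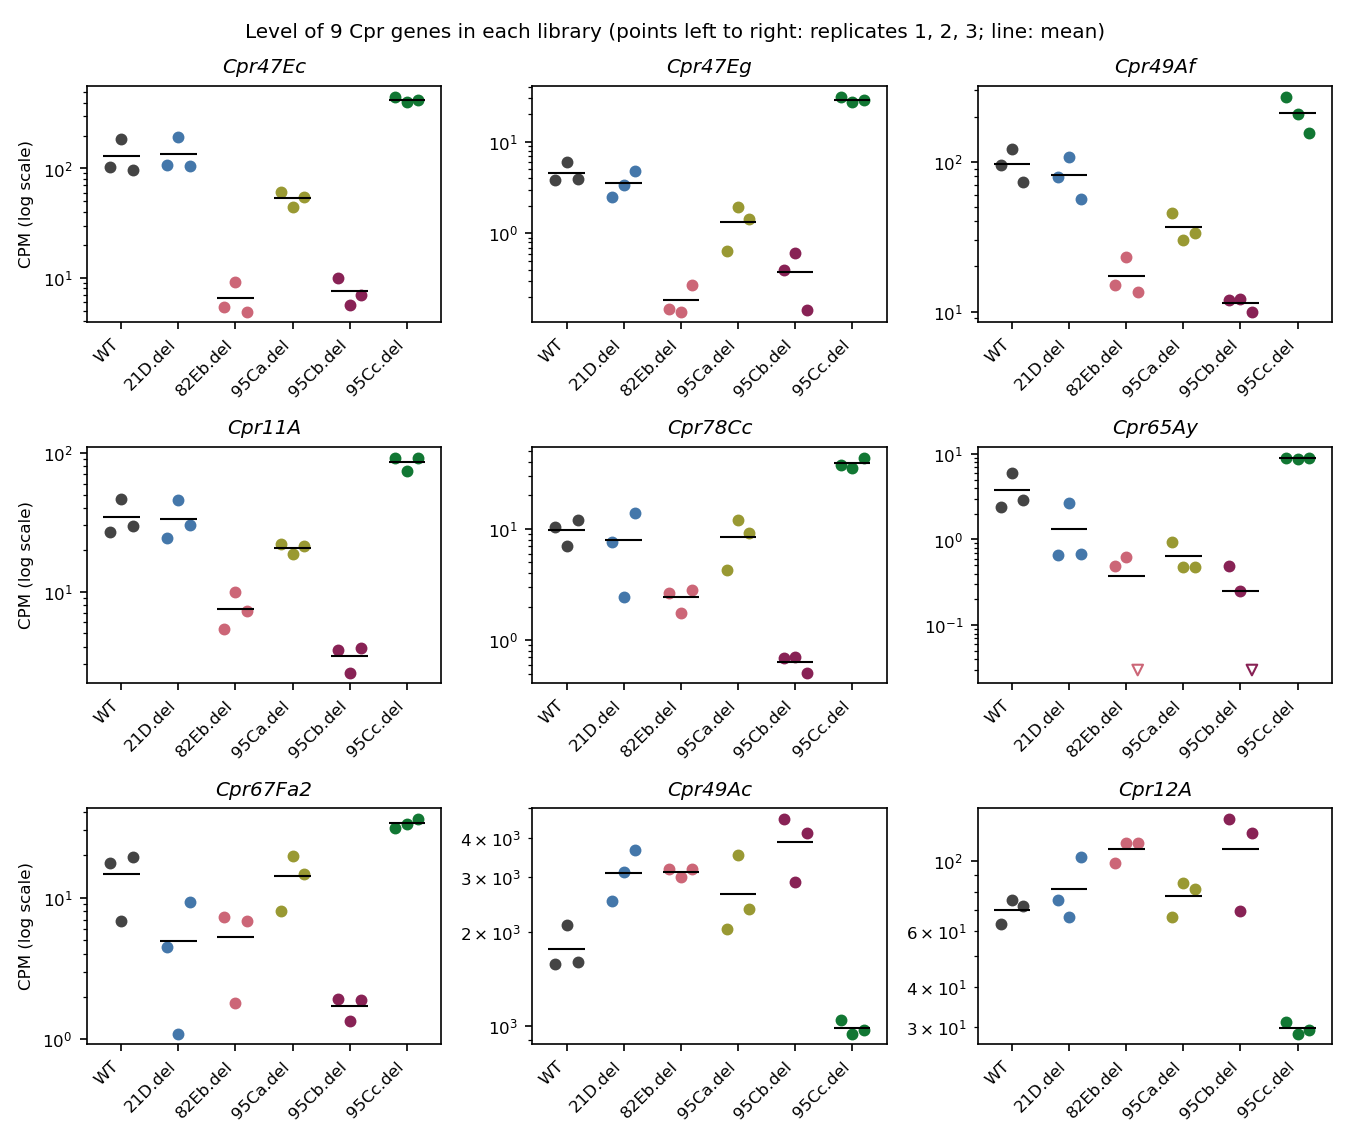
CPM of 9 Cpr genes on a log scale in all 18 libraries, with points ordered by replicate number, a line at the mean of each group and an open triangle for a count of 0. In Cpr47Ec the 82Eb.del and 95Cb.del libraries (4.91 to 10 CPM) lie below and the 95Cc.del libraries (406 to 453 CPM) above those of every other group, while Cpr49Ac and Cpr12A are lowest in 95Cc.del.

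In 95Cc.del more members rose than fell. Of 43 tested, 8 rose (18.6%, against 2.07% of all genes) and 3 fell (6.98%, against 2.73%), and the median log2 was 0.31, with 0.02 over all genes. Cpr47Eg measured 31.0, 26.9 and 28.3 CPM against 3.86, 5.96 and 3.94 (log2 2.70, SE 0.14, adjusted p = 0.000224). Cpr47Ec reached 453, 406 and 423 CPM (log2 1.80, SE 0.18, adjusted p = 0.00268) and Cpr11A 92.3, 74.3 and 91.8 (log2 1.39, SE 0.16, adjusted p = 0.0047). These 3 rises, each with all strain libraries above all WT libraries, held whichever library was left out. The falls included Cpr12A, an abundant X-linked member, at 31.0, 28.5 and 29.3 CPM against 63.1, 75.1 and 72.2 (log2 -1.22, SE 0.13, adjusted p = 0.00312), which also held.

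The remaining 5 rises in 95Cc.del were Cpr67Fa1 (log2 2.53), Cpr49Ad (2.64), Cpr78Cc (1.97), Cpr65Ay (1.33) and Cpr49Af (1.17). Cpr78Cc measured 37.8, 35.3 and 43.7 CPM and Cpr65Ay 8.84, 8.61 and 9.02, in both without overlap with WT. Cpr49Ad rose from 24 reads in the 3 WT libraries to 158. The count of rises dropped to 4 without WT replicate 1, WT replicate 3 or 95Cc.del replicate 3 and to 3 without 95Cc.del replicate 1 or replicate 2, and went to 10 without WT replicate 2, with Cpr11B and Cpr60D added. Cpr66Cb measured 1.04, 1.39 and 0.814 CPM against 4.13, 4.45 and 5.78 (log2 -2.13, SE 0.30, adjusted p = 0.0092) and was lost without 95Cc.del replicate 1 (0.0616) or replicate 3 (0.0555). Cpr65Av fell by 1.62 (8.62, 5.76 and 9.02 CPM) and was lost without WT replicate 1, WT replicate 3 or replicates 1 or 2 of the strain (0.0604 to 0.0798). The count of falls was 1 without 95Cc.del replicate 1, and 6 without WT replicate 2 with Cpr49Ab, Cpr56F and Cpr78E added. Cpr49Ac, at 1041, 944 and 970 CPM, lay below every WT library at a fold change under the limit (log2 -0.80, SE 0.14, adjusted p = 0.0215). Replicates 2 and 3 of the strain against WT replicates 1 and 3 gave 11 rises and 5 falls, the 8 and the 3 among them.

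Across strains, no member fell in more than 3. Cpr47Ec and Cpr49Af fell in 82Eb.del, 95Ca.del and 95Cb.del and rose in 95Cc.del. All 5 genes that fell in 82Eb.del (Cpr47Ec, Cpr47Eg, Cpr49Af, Cpr11A and Cpr78Cc) fell in 95Cb.del and rose in 95Cc.del. Another 2, Cpr65Ay and Cpr67Fa1, also fell in 95Cb.del and rose in 95Cc.del. How many of all genes overlapped between strains in these ways was not counted. Cpr65Av was the 1 gene that fell in both 95Cb.del and 95Cc.del, and its WT libraries (20.9 to 26 CPM) lay above all libraries of 82Eb.del, 95Ca.del, 95Cb.del and 95Cc.del. Because all these comparisons use the same WT libraries, the strains were also set against each other, which does not depend on the WT level.

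Among the 5 deletion strains 21 of 45 members differed (46.7%, against 13.2% of all genes), by an F test over the strains in 1 fit of all 18 libraries and a range of fitted levels above 1 on the log2 scale. The median range over the members was 1.94, against 0.72 over all genes. Leaving out 1 library at a time gave 15 genes (without 95Cb.del replicate 3) to 27 (without 21D.del replicate 2), and replicates 1 and 3 alone gave 26. The call of Cpr67Fa1 was lost without 95Cb.del replicate 2 or replicate 3. The widest ranges were those of Cpr47Eg (7.17, adjusted p = 2.19e-07), Cpr67Fa1 (6.61, adjusted p = 0.0205), Cpr47Ec (6.07, adjusted p = 3.01e-09), Cpr78Cc (5.96, adjusted p = 6.82e-05), Cpr65Ay (5.07), Cpr11A (4.69), Cpr67Fa2 (4.33) and Cpr49Af (4.26). In Cpr47Ec the means ran from 6.5 ± 2.34 CPM in 82Eb.del and 7.54 ± 2.24 in 95Cb.del, which overlapped, through 53.3 ± 8.37 in 95Ca.del and 135 ± 50.5 in 21D.del to 428 ± 23.5 in 95Cc.del (SD, n = 3). The WT, at 129 ± 49.5, overlapped with 21D.del. In Cpr11A the order was 95Cb.del (3.44 ± 0.721), 82Eb.del (7.52 ± 2.29), 95Ca.del (20.6 ± 1.77), 21D.del (33.4 ± 10.9) and 95Cc.del (86.1 ± 10.2), of which neighbouring strains did not overlap.

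Of the strain pairs, 95Cb.del with 95Cc.del and 82Eb.del with 95Cc.del were compared directly. Between 95Cb.del and 95Cc.del, deletions of copies in the same 95C region, 26 of 45 members differed (57.8%, against 13.4% of all genes), and 20 of these were lower and 6 higher in 95Cb.del. Cpr47Eg was lower by 6.21 on the log2 scale (SE 0.50, adjusted p = 9.73e-07), Cpr47Ec by 5.88 (SE 0.28, adjusted p = 9.95e-09), Cpr11A by 4.69 (SE 0.25, adjusted p = 2.38e-08) and Cpr49Af by 4.26 (SE 0.22, adjusted p = 1.65e-08). Their WT levels lay between those of the 2 strains in every library. The 6 genes higher in 95Cb.del were Cpr47Ee (2.89), Cpr62Ba (2.44), Cpr49Ac (1.94), Cpr12A (1.84), Cpr56F (1.51) and Cpr66Cb (1.28). Cpr62Ba, with 38 reads in 95Cb.del and 6 in 95Cc.del, passed the filter only through the 95Cb.del libraries. Its higher level there was thus built into its inclusion. With 1 library of the pair left out at a time, the call of Cpr62Ba held in 3 of 6 fits and that of Cpr47Ee in 4 of 6. Of the 26 calls 19 held whichever library of the pair was left out, and 26 were called with the replicate number as a block.

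**Figure D4:**
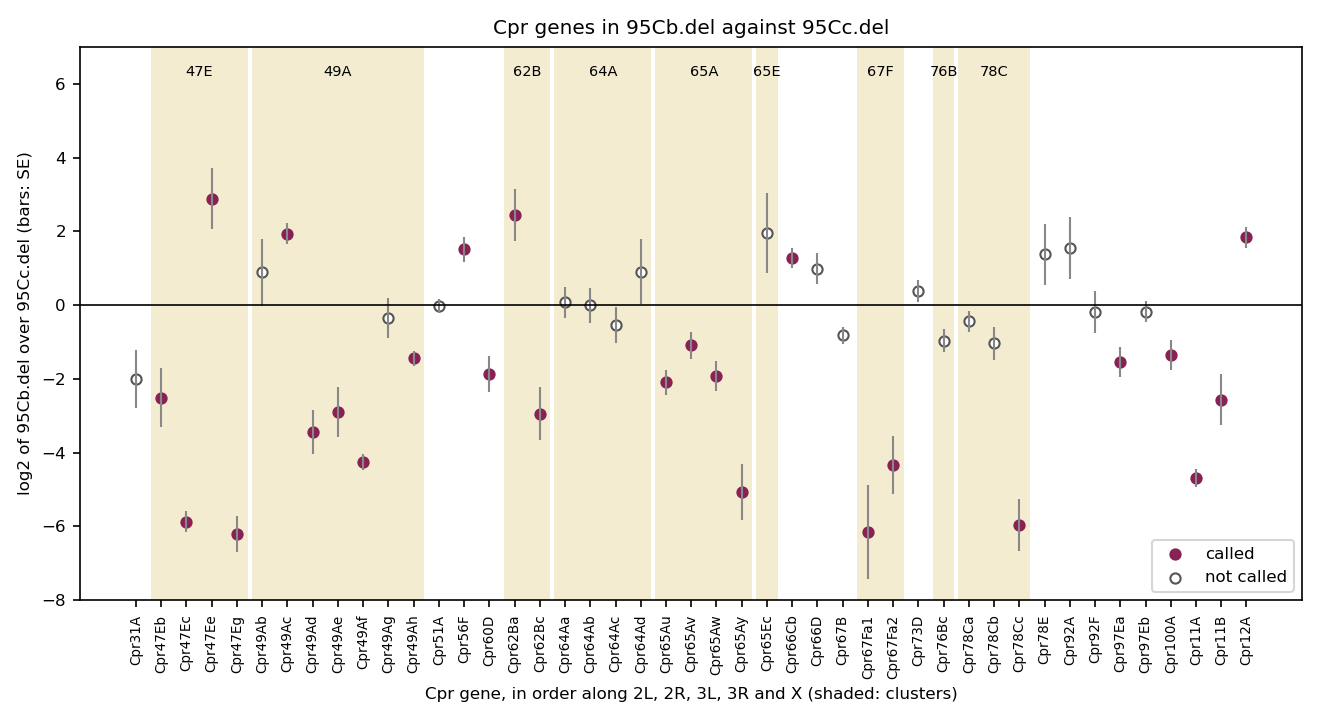
Fitted log2 level in 95Cb.del over 95Cc.del of 45 Cpr genes, in order along the arms, with SE as bars, clusters shaded and filled points for the 26 genes that differed. Members of 47E (Cpr47Ee at 2.89, Cpr47Ec at -5.88) and 49A (Cpr49Ac at 1.94, Cpr49Af at -4.26) lie on opposite sides of 0, while the 4 tested genes of 64A lie between -0.54 and 0.91.

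In 82Eb.del against 95Cc.del, the deletions of the 2 copies whose sequence departs from the canonical U1, 17 of 45 members differed (37.8%, against 7.57% of all genes), 13 lower and 4 higher in 82Eb.del. Cpr47Eg (log2 -7.17, SE 0.54), Cpr47Ec (-6.07, SE 0.28) and Cpr65Ay (-4.58, SE 0.73) were the most lowered, and Cpr12A (1.89, SE 0.28) and Cpr49Ac (1.69, SE 0.29) the most raised. Of the 17 calls 8 held whichever library of the pair was left out (Cpr47Eg, Cpr47Ec, Cpr65Ay, Cpr78Cc, Cpr49Af, Cpr11A, Cpr49Ac and Cpr12A). The count was 9 without 82Eb.del replicate 1 and 10 without 82Eb.del replicate 3, 95Cc.del replicate 1 or 95Cc.del replicate 3.

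The clusters 47E and 49A did not move as blocks. In 65A and 67F, by contrast, all tested genes were called lower in 95Cb.del than in 95Cc.del. Clusters with 1 tested gene, such as 65E and 76B, cannot show either outcome. In 47E, 4 of 7 members were tested. Cpr47Ec and Cpr47Eg, with Cpr47Ed, Cpr47Ee and Cpr47Ef between them, fell in 82Eb.del and 95Cb.del and rose in 95Cc.del. Cpr47Eb, which lies next to Cpr47Ec on the opposite strand and has no intron, was called in no strain by the unblocked fit (log2 -1.56 in 82Eb.del, -1.88 in 95Cb.del and 0.64 in 95Cc.del). Cpr47Ee measured 3.22, 3.97 and 3.50 CPM in 95Cb.del against 1.01, 0.336 and 1.61 in WT and 0.165, 0.910 and 0.313 in 95Cc.del, an order opposite to that of Cpr47Ec and Cpr47Eg. The sum over the cluster was 164 ± 32.2 CPM in WT, 17.7 ± 3.10 in 82Eb.del, 20.3 ± 1.96 in 95Cb.del and 504 ± 16.2 in 95Cc.del. Cpr47Ec was the largest part in WT (129 CPM) and 95Cc.del (428), while in 82Eb.del (6.5 CPM) and 95Cb.del (7.54) its mean lay below that of Cpr47Eb (9.83 and 8.52).

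In 49A, 3 members fell and 1 rose in 95Cb.del, and 2 rose in 95Cc.del. The abundant Cpr49Ac (2R, 12386666 to 12390057, plus strand, 5 introns) set the sum of the cluster, which was 1890 ± 323 CPM in WT, 3930 ± 890 in 95Cb.del and 1237 ± 104 in 95Cc.del, opposite in order to that of 47E. Cpr49Af (2R, 12405932 to 12407045, plus strand, 1 intron) lies downstream of it and moved as Cpr47Ec did. In 95Cb.del against 95Cc.del, Cpr49Ad, Cpr49Ae, Cpr49Af and Cpr49Ah were lower and Cpr49Ac higher, and Cpr49Ab and Cpr49Ag did not pass.

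In 65A all 4 tested genes were lower in 95Cb.del than in 95Cc.del (log2 of -1.09 in Cpr65Av to -5.07 in Cpr65Ay). Against WT all 4 lay below 0 in 82Eb.del (-3.25 to -0.94), 95Ca.del (-2.42 to -0.28) and 95Cb.del (-3.79 to -1.57). They lay on both sides of 0 in 21D.del (-1.46 to 0.94) and 95Cc.del (-1.62 to 1.33). The sum of 65A was 46.1 ± 7.70 CPM in WT, 19.0 ± 0.337 in 82Eb.del, 23.5 ± 5.93 in 95Ca.del, 10.3 ± 3.20 in 95Cb.del and 40.5 ± 3.38 in 95Cc.del. In 67F both tested genes fell in 95Cb.del, to a summed 1.91 ± 0.461 CPM from 16.8 ± 8.04, and Cpr67Fa1 rose in 95Cc.del. Reads of these close copies may be shared between them. In 78C Cpr78Cc moved while Cpr78Ca, at 12.4 ± 4.98 CPM in WT and with log2 values of -0.20 to -0.79 in the 5 strains, was called in none. The 4 genes of 64A were called in no strain by the unblocked fit, with medians of -0.26 to 0.51. The 25 genes outside clusters, 16 or 17 of which were tested, held 3 of the 13 falls in 95Cb.del (Cpr11A, Cpr67B and Cpr100A).

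Within groups the members differed in how they followed the libraries that stood apart. Of the 37 genes with a mean WT level of at least 1 CPM, 17 were lower in replicate 2 than in the mean of replicates 1 and 3 in all 3 of WT, 21D.del and 82Eb.del, and 10 were higher in all 3. In 7 genes replicate 2 was over 2-fold lower in each of these groups. Cpr65Ec, for example, measured 4.18, 0.168 and 2.21 CPM in WT and 5.19, 0.0736 and 4.86 in 21D.del. Cpr49Ab, Cpr47Eb, Cpr67Fa1, Cpr67Fa2, Cpr62Bc and Cpr31A were the other 6. Conversely Cpr47Ec and Cpr65Ay were over 1.5-fold higher in replicate 2 of each of these groups, as were Cpr11A and Cpr49Ah. The summed level of the other R&R genes listed here was 3869 CPM in replicate 2 of WT against 28438 and 23661 in replicates 1 and 3. That sum was carried by the larval cuticle protein genes Lcp1 to Lcp4, and members with low levels did not all follow it, as Lcp65Ag1 measured 5.14, 9.73 and 5.67 CPM in the WT replicates 1 to 3. The part of developmental time in these differences was not tested.

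**Figure D5:**
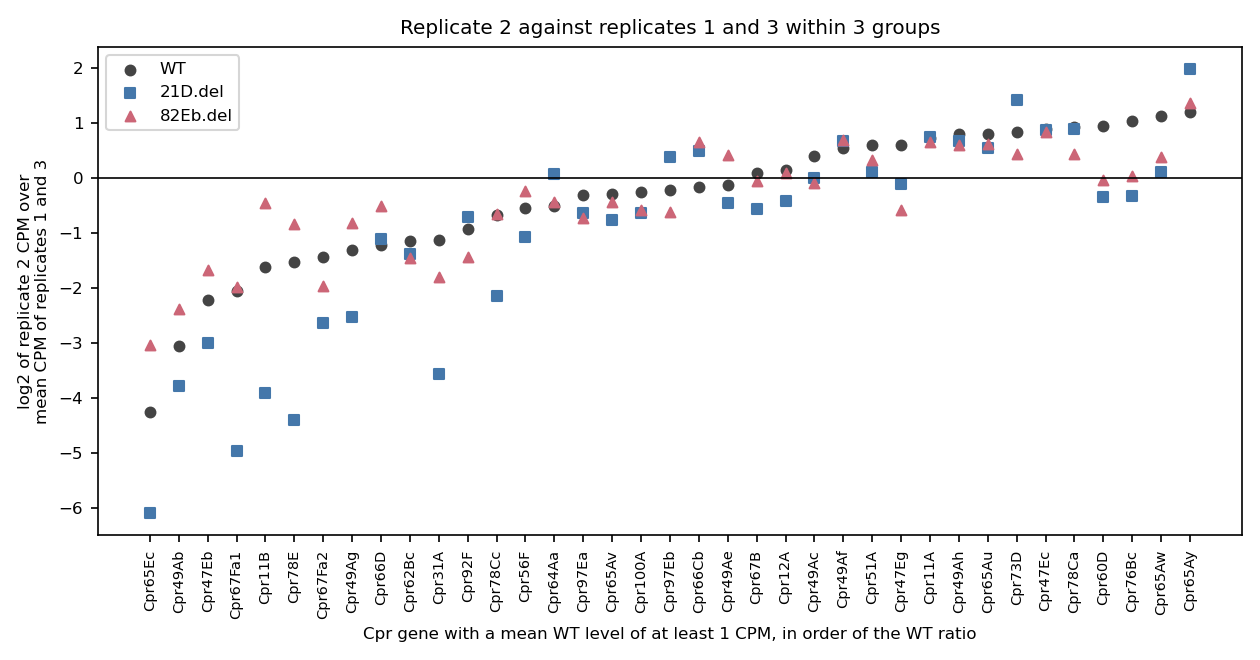
Log2 ratio of replicate 2 to the mean of replicates 1 and 3 in WT, 21D.del and 82Eb.del for the 37 Cpr genes with a mean WT level of at least 1 CPM. Cpr65Ec (-4.25 in WT), Cpr49Ab and Cpr47Eb lie far below 0 in all 3 groups, while Cpr65Ay (1.20 in WT) and Cpr47Ec (0.89) lie above it.

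Other gene groups of the cuticle and of the ecdysone response were read beside the members, against the shares of all genes that fell or rose in each strain given above. Of the other R&R genes (29 in the table, 19 to 22 tested), 5 fell and none rose in 82Eb.del and in 95Cb.del, 4 rose and none fell in 95Cc.del, and none changed in 21D.del or 95Ca.del. Their median log2 values were -1.38 in 82Eb.del, -1.63 in 95Cb.del and 0.91 in 95Cc.del. Of the genes induced by or required for the ecdysone pulse (29 in the table), 10 of 25 rose and 1 fell in 95Cb.del, and 3 of 22 fell and none rose in 95Cc.del. Outside 95Cb.del 21 or 22 of them were tested. Genes such as Eig71Ed (0 CPM in every WT library, 3.77, 2.61 and 2.84 in 95Cb.del) passed the filter only through the libraries of 95Cb.del. A rise of such genes was built into their inclusion. The summed level of this list was 3589 to 4110 CPM in WT and 2718 to 3193 in 95Cc.del. It lay above all WT libraries in the other 4 strains, with 4929 to 6848 in 21D.del, 5259 to 6159 in 82Eb.del, 4945 to 6134 in 95Ca.del and 4850 to 7561 in 95Cb.del. Genes of cuticle tanning, which acts on the cuticle after it has been laid down, summed to 1579 to 1645 CPM in WT, 2435 to 2591 in 21D.del, 1604 to 1653 in 82Eb.del, 1937 to 2068 in 95Ca.del, 3597 to 3659 in 95Cb.del and 972 to 1017 in 95Cc.del. This sum was above WT in 21D.del and overlapped with WT in 82Eb.del. Its relation to the Cpr calls was not tested. Of the 11 tested 3 rose and 1 fell in 95Cb.del and 1 fell in 95Cc.del. The labels give no age within the instar, so that a difference between strains and a difference in developmental time cannot be told apart. Of 29 genes of chitin synthesis and matrix none rose in any strain, and 0 to 2 fell, a share near that of all genes: Gasp, which encodes a chitin-binding protein of the tracheal and epidermal matrix, in 82Eb.del, 95Ca.del and 95Cb.del and obst-G in 95Cb.del. Of the 26 Tweedle genes, a second family of cuticle proteins, 2 of the 11 tested rose in 95Cc.del, and none of the 8 or 9 tested elsewhere changed. TwdlO (at most 0.0596 CPM in WT, 1.54, 3.15 and 4.07 in 95Cc.del) and TwdlP (at most 0.252, against 1.37, 1.46 and 2.07) passed the filter only through the 95Cc.del libraries. A rise of these genes was built into their inclusion, and they could not be called elsewhere. Of the 12 glue genes, 11 were tested, with ng1, ng2 and ng3 rising in 95Cc.del and 1 falling (ng1) and 1 rising in each of 82Eb.del and 95Cb.del. Of the 8 genes listed for larval fat body proteins none changed in any strain.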

How the data were processed

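The deposited values are raw read counts per gene. The authors trimmed the reads with Trimmomatic 0.39 (cutadapt 1.15 is also named in the submitters' notes), aligned them with HISAT2 (build dm6) and obtained gene counts from featureCounts. The other versions, the annotation and the handling of strand and of multiply mapped reads are not given in the sources used here. The table also gives exon length, from which CPM per kb was computed.

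A separate fit was made for each strain and the WT (edgeR 4.0.16, R 4.3.3): filterByExpr (minimum count 10, minimum total 15), TMM factors, quasi-likelihood test and Benjamini-Hochberg adjustment over all genes tested. The study used DESeq2, which was an alternative here (1.42.0). Differences among strains came from 1 fit of all 18 libraries. Standard errors were computed from the log2 fold change and its F statistic. The fits were tested on simulated data. Intervals and floors cover counting error only.

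Same-numbered libraries of WT and 21D.del (r of 0.65, 0.843 and 0.687 over 13096 genes) and of WT and 82Eb.del (0.652, 0.844 and 0.647) deviated together. Pairing rests on this check alone. The main fits and their counts did not use it, and it entered only the alternative with the replicate number as a block. An outlying replicate 2 in both groups gives the same pattern. Between WT and each of the other 3 strains, 2 of the 3 correlations were below 0.

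The members and the gene lists were chosen with earlier results of these data known. Named were the 10 members with the highest WT level per kb, the genes called in each strain (in 95Cb.del and 95Cc.del, with over 10 calls, the 5 largest falls and the 5 largest rises among those whose libraries lay outside the WT range), those called in most strains, the leading gene of each cluster, Cpr100A and Cpr47Eg. Other members were named after their values were seen. Positions, introns and overlaps follow the Ensembl annotation of BDGP6.54, whose coordinates equal those of the table for all 70 genes.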

Additional observations from a re-analysis of the deposited data

Results flagged for a closer look

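The levels of Cpr genes differed between the deletion strains by tests of the difference itself: 21 of 45 members differed among the 5 strains, 26 between 95Cb.del and 95Cc.del and 17 between 82Eb.del and 95Cc.del. The fitted levels of the 7 genes that fell in 95Cb.del and rose in 95Cc.del, which that choice sets apart between these strains, spanned over the 5 strains, on the log2 scale, 7.17 for Cpr47Eg, 6.61 for Cpr67Fa1, 6.07 for Cpr47Ec, 5.96 for Cpr78Cc, 5.07 for Cpr65Ay, 4.69 for Cpr11A and 4.26 for Cpr49Af. Cpr67Fa1 rests on 10 reads in 95Cb.del, and its call among the strains was lost without 95Cb.del replicate 2 or replicate 3. Groups of 3 libraries were too small for a test of single outlying libraries.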

How the results depend on the processing

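Among the named genes, no called fold change reversed its direction under any alternative run. Of their fold changes that were not called, 10 values changed sign by more than the SE. The direction of other members was not followed. With the replicate number as a block, 3 members fell in 21D.del, 11 fell and 4 rose in 82Eb.del, none fell in 95Ca.del, 8 fell and 0 rose in 95Cb.del, and 4 rose in 95Cc.del. The remaining counts stayed within 1.5 times of their values. In the last 3 strains the samples share only a number. With replicates 1 and 3 alone, 2 fell in 21D.del, 13 fell and 4 rose in 82Eb.del, and 7 fell in 95Cc.del. DESeq2 called 6 falls and 1 rise in 95Ca.del and 2 rises in 95Cb.del. Scaling to library totals left 1 fall in 95Ca.del, 0 rises in 95Cb.del and 5 rises in 95Cc.del. A fit across all 6 groups gave 5 falls in 95Ca.del and 5 rises in 95Cc.del. Replicates 2 and 3 against WT replicates 1 and 3, added after the data were seen, gave 6 falls and 1 rise in 95Ca.del, 20 falls and 3 rises in 95Cb.del and 5 falls in 95Cc.del. The cause of these shifts was not tested. Leaving out 1 library at a time gave 0 to 1 falls in 95Ca.del, 0 to 2 rises in 95Cb.del, 1 to 6 falls and 3 to 10 rises in 95Cc.del, and 9 to 21 genes between 82Eb.del and 95Cc.del. Depth limited the 25 untested members and genes with few reads such as Cpr67Fa1 and Cpr49Ae.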
